A study of Mus musculus with 25 samples.

Results

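Interferon-stimulated genes were followed across the isolated lymphoid follicle (ILF) of the mouse jejunum and the epithelium around it. The set was a fixed list of 43 gene symbols, matched to the gene names of a table of unique molecular identifier (UMI) counts. The table held 24089 genes, 40 of the 43 among them, and counts of Irf8, Gbp9 and Ifi47 were not analysed here. The list was made by gene name, not by a cut on expression in these libraries, but with earlier results of these data known. RNA came from 25 pools of tissue cut by laser capture microdissection (LCM), 5 repeats of each of 5 segments: ILF bottom (ILFB) and ILF top (ILFT), which are immune tissue, and follicle-associated epithelium top (FAET), follicle-associated epithelium bottom (FAEB) and villus bottom (VB), which are epithelium. All came from 2 wild-type C57BL/6 males aged 3 months by their labels, mouse 1 giving repeats 1 and 2 and mouse 2 giving repeats 3 to 5. Each library pooled tissue from at least 3 ILFs found by histology, so a value is an average over the cell types in the cut area, and the p-values below measure mostly the spread between dissections of 2 animals.

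Interferons are cytokines that cells release on sensing microbial nucleic acid. Type I and type III interferons signal through a complex with Stat2 and Irf9 that binds the interferon-stimulated response element (ISRE). Interferon gamma, made mainly by lymphocytes, acts through the gamma-activated sequence (GAS). The genes these factors switch on include sensors of viral RNA, enzymes that block translation or destroy RNA, and GTPases that attack the vacuoles of intracellular microbes. In the gut, type III interferon is known for its action on epithelial cells, and resident microbes keep some of these genes on at a low level.

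The promoters of the list carry these elements more often than promoters at large, and a few are printed to show what many of the genes share. RefSeq entries (GRCm38.p6) were found for 30 of the 43 members, each window running from 250 bases before an annotated start to 50 after it, and some genes having more than 1 window. The ISRE core, GAAA and GAAA with any 2 bases (NN) between them, stood on either strand in a window of 19 of the 30 genes (63.3%), against 508 of the 13336 genes of the count table with an entry (3.81%) and 3.99% of all 27025 genes with one. The GAS letters TTCNNNGAA, a palindrome, stood in a window of 11 of the 30 genes (36.7%), against 8.71% of the 13336 genes and 9.55% of the 27025. Both elements were found for Bst2, Eif2ak2, Gbp5, Gbp7, Igtp, Irgm2 and Oas1a, and neither for Ifi44, Ifi47, Irf7, Irf9, Oasl2, Trim25 and Xaf1. A match describes letters only, and none was tested for binding. Below are the 250 bases before the start of 4 members, 5′ to 3′ on the gene's own strand, with matches in capitals. Bst2 was called in ILF (below) and its ISRE and GAS letters overlap in 1 run, Mndal had the most UMIs and an ISRE near its start, Stat2 has a distant ISRE on the opposite strand, and Irf1 has a GAS alone.
Bst2 (chr8:71537473-71537722, minus strand): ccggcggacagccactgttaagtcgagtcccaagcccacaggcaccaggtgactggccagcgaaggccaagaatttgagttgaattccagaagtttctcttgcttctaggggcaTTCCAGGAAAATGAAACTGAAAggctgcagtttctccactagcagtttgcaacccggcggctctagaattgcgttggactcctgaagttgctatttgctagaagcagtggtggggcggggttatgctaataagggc
Mndal (chr1:173880188-173880437, minus strand): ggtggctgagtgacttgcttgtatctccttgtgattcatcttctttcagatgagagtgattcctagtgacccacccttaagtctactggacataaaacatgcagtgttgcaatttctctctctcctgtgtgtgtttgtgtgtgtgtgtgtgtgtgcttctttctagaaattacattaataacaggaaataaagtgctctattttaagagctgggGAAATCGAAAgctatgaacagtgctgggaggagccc
Stat2 (chr10:128270248-128270497, plus strand): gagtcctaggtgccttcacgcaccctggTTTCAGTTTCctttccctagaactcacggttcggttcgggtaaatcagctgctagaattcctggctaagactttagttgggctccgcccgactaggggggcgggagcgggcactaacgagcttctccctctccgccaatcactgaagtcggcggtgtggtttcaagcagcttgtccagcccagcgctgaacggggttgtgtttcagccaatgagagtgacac
Irf1 (chr11:53769764-53770013, plus strand): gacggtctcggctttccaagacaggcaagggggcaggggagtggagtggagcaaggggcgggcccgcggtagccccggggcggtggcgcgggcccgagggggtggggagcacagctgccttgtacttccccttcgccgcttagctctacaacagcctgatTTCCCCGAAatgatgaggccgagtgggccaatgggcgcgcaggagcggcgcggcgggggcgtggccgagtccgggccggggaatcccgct
Counted from the start, the first base of the Bst2 matches lay at -136 for the GAS and at -130 and -124 for the ISREs. The ISRE at -130 shares bases with the GAS and with the other ISRE. The Mndal ISRE began at -36, the Stat2 ISRE at -222 and the Irf1 GAS at -90. Igtp had an ISRE at -34 and a GAS at -45, and Gbp7 an ISRE at -53 and GAS letters at -106 and -87.

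**Figure D1:**
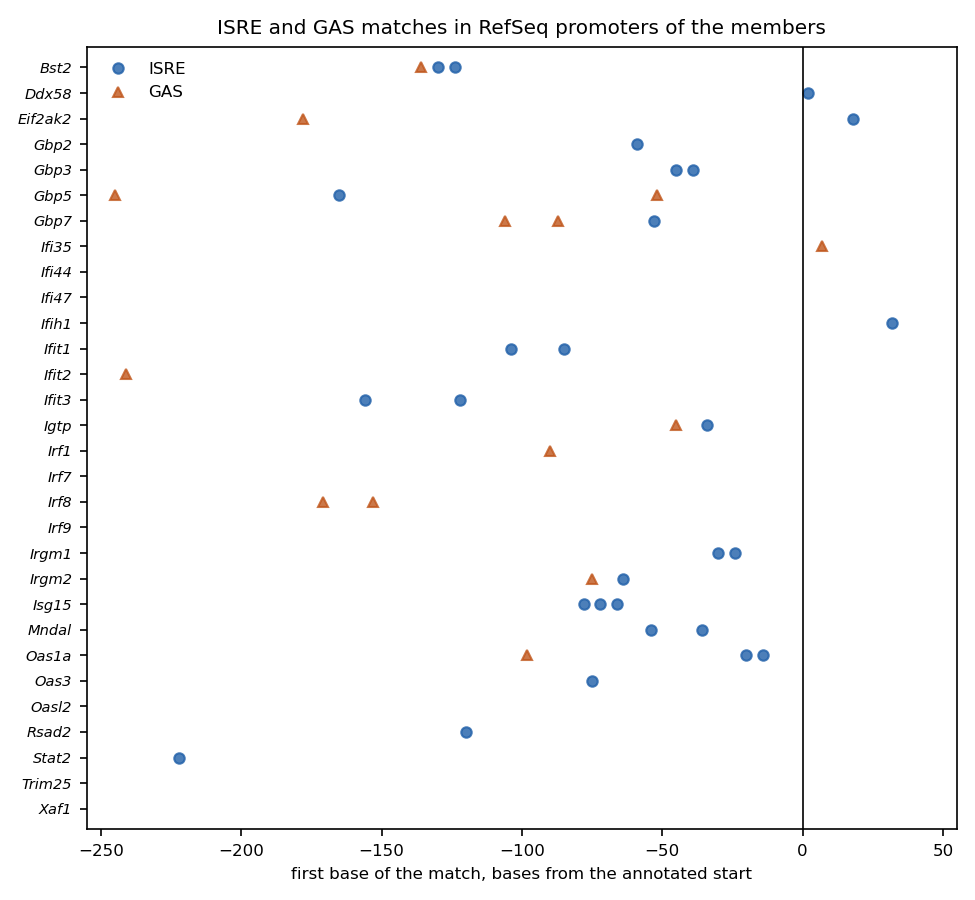
Positions of ISRE (circles) and GAS (triangles) letters in the RefSeq promoter windows of the 30 members with an entry, 1 row per gene, in bases from the annotated start on the horizontal axis (-250 to 50). ISRE letters were present for 19 genes and GAS letters for 11, and 7 rows are empty.

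Library totals ran from 21529 to 213736 UMIs (median 83798), which sets how much can be seen of genes this rare. The 40 members had 3007 of 2168514 UMIs in all. Of the 40, 10 had at least 100 UMIs over the 25 libraries and 12 had fewer than 20, and between 1 member (FAET repeat 2) and 35 members (ILFB repeat 4) were seen in a library. The segment labels were checked against 18 pan-epithelial and 17 pan-immune marker genes, and in 6 libraries the larger sum belonged to the other tissue. VB repeat 5 and FAET repeat 1 had 3.05 and 15.2 epithelial against 102.9 and 70.8 immune UMIs per 10,000 UMIs of the library. ILFB repeat 5 and ILFT repeats 1, 3 and 4 had 60.6 to 85.1 epithelial against 6.59 to 64.7 immune UMIs per 10,000. In the other 6 ILF libraries the sums were 0.795 to 14.2 epithelial and 45.02 to 111.4 immune, with 17 of 18 epithelial markers detected (Cdx1 at 0). In the other 13 epithelial libraries they were 27.0 to 93.9 and 4.29 to 22.6. Mitochondrial genes took 5.38% to 15.6% of UMIs in those 6 and 14.4% to 28.6% in those 13. Sets named below by immune or epithelial markers go by the larger sum. ILFT repeat 3 held many of both, 79.5 epithelial and 64.7 immune, beside 45.02 immune in ILFT repeat 2. No library was relabeled, and the calls and the sums over the list are also given without the 6 that go against their label.

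Summed over the list, interferon-stimulated genes took more of the RNA in ILF than in epithelium, with wide overlap between libraries. ILFB held 14.6, 13.3, 15.7, 16.5 and 6.06 member UMIs per 10,000 in repeats 1 to 5, and ILFT 12.5, 46.4, 23.5, 7.55 and 24.9. FAET held 17.5, 1.39, 4.72, 9.04 and 6.15, FAEB 6.98, 12.5, 11.8, 5.21 and 6.52, and VB 13.5, 4.26, 11.3, 20.6 and 15.7. The highest library was ILFT repeat 2, the lowest FAET repeat 2, and VB repeats 4 and 5 exceeded most of ILFB. The mean was 18.1 ± 11.6 in ILF (SD, n = 10) and 9.81 ± 5.47 in epithelium (n = 15), a difference of 8.28 that is smaller than the SD in ILF and ran from 4.41 to 10.25 with 1 repeat left out. Without ILFT repeat 2, a library chosen after seeing the data, ILF averaged 14.95 ± 6.30 (n = 9) and the difference was 5.14. It was 21.7 ± 16.5 in ILF (n = 4) and 9.36 ± 6.14 in epithelium (n = 6) of mouse 1, and 15.7 ± 7.82 (n = 6) and 10.1 ± 5.34 (n = 9) in mouse 2. Without the 6 libraries, ILF held 13.3 to 46.4 (median 16.1, n = 6) and epithelium 1.39 to 20.6 (median 6.98, n = 13). No p-value is given for a sum over a list.

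**Figure D2:**
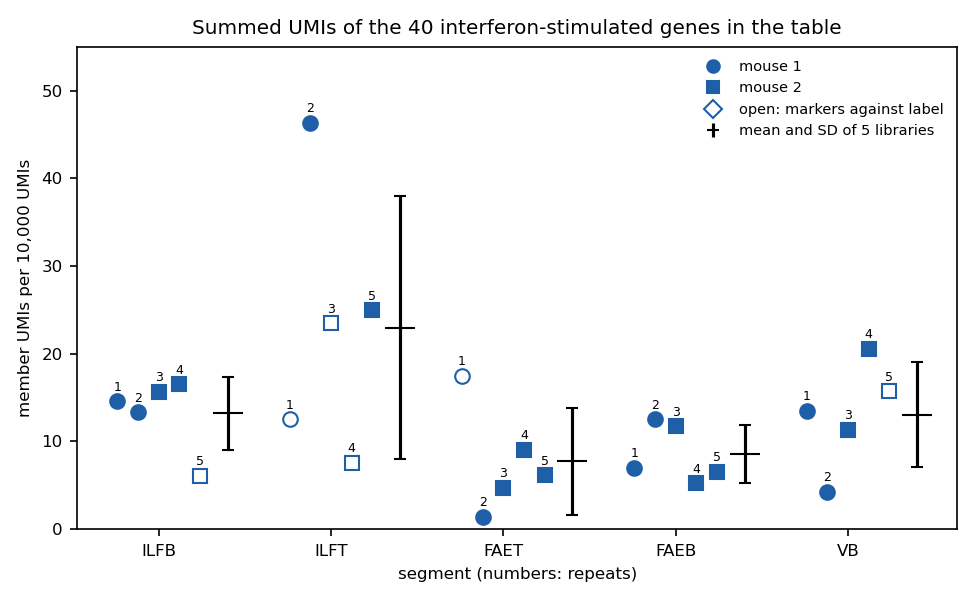
Member UMIs per 10,000 UMIs of each library (vertical axis) by segment, with circles for mouse 1, squares for mouse 2, open symbols for the 6 libraries whose markers go against their label, and bars for the mean and SD of 5. ILF libraries lay between 6.06 and 46.4 and epithelial libraries between 1.39 and 20.6.

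Of the members, Mndal had the most UMIs. Mndal, of the PYHIN family of interferon-inducible nuclear proteins, held 471 of the 3007 member UMIs. Its share of the member UMIs was 20% to 34.8% in ILFB repeats 1 to 4 and 0% in ILFB repeat 5. It was highest in VB repeat 5 (45.8%), and 24.9% in ILFT repeat 5 and 21.2% in FAET repeat 1. Leaving it out brought the sum to 15.4 ± 10.6 per 10,000 in ILF (SD, n = 10) and 8.96 ± 4.98 in epithelium (n = 15), a difference of 6.40, or 3.44 with ILFT repeat 2 also left out. The groups overlapped with and without Mndal. Less Mndal and less the 6 libraries, it was 17.6 ± 12.4 in ILF (n = 6) and 8.62 ± 5.18 in epithelium (n = 13).

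Grouped by what they do, 3 groups had the highest ratios of ILF mean to epithelial mean over all libraries. They were the guanylate-binding proteins, the mixed group that holds Mndal, and the immunity-related and very large GTPases. ILFT repeat 2 carried part of each. The immunity-related and very large GTPases had 3.55 ± 1.81 UMIs per 10,000 in ILF (SD, n = 10, lowest 2.01) and 1.57 ± 1.498 in epithelium (n = 15, lowest 0). Gvin1, the very large one, gave 175 of the UMIs in ILF and 98 in epithelium, and the immunity-related ones act on the vacuoles of microbes. Guanylate-binding proteins, which coat and break such vacuoles, had 1.80 ± 2.95 in ILF and 0.594 ± 0.751 in epithelium. The mixed group of Ifi27, Ifi35, Ifi44, Mndal, Rtp4 and Xaf1 had 4.39 ± 4.17 in ILF and 1.67 ± 2.14 in epithelium. Without ILFT repeat 2 the means in ILF were 3.095 for the immunity-related and very large GTPases, 0.885 for the guanylate-binding proteins and 3.36 for the mixed group, so the ratio to epithelium was 1.97, 1.49 and 2.01. The IFIT and virus restriction group then had the highest ratio, 2.17, beside 1.99 over all libraries. The ranges overlapped between the tissues in the 3 groups first named and in each other group. Transcription factors had 3.49 ± 3.47 in ILF and 1.92 ± 1.40 in epithelium, and the IFIT and virus restriction group had 1.74 ± 1.69 in ILF and 0.871 ± 1.05 in epithelium. The ADP-ribosyltransferases Parp9 and Parp14 had 1.03 ± 0.941 in ILF and 0.702 ± 0.769 in epithelium. Nucleic acid sensors stood at 1.51 ± 0.737 in ILF and 1.56 ± 1.11 in epithelium. The OAS family, whose enzymes make the oligoadenylates that activate RNase L, had 0.422 ± 0.341 in ILF and 0.704 ± 0.856 in epithelium, and the ISG15 system had 0.166 ± 0.181 in ILF and 0.221 ± 0.339 in epithelium. Leaving out the 6 libraries, the mixed group averaged 6.81 in ILF (n = 6) and 1.00 in epithelium (n = 13), the immunity-related and very large GTPases 3.69 and 1.515, the guanylate-binding proteins 2.80 and 0.394, transcription factors 3.99 and 1.91, and the IFIT and virus restriction group 1.67 and 0.746. The ADP-ribosyltransferases then averaged 0.836 in ILF and 0.736 in epithelium, sensors 1.51 and 1.47, the OAS family 0.379 and 0.761, and the ISG15 system 0.194 and 0.231.

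**Figure D3:**
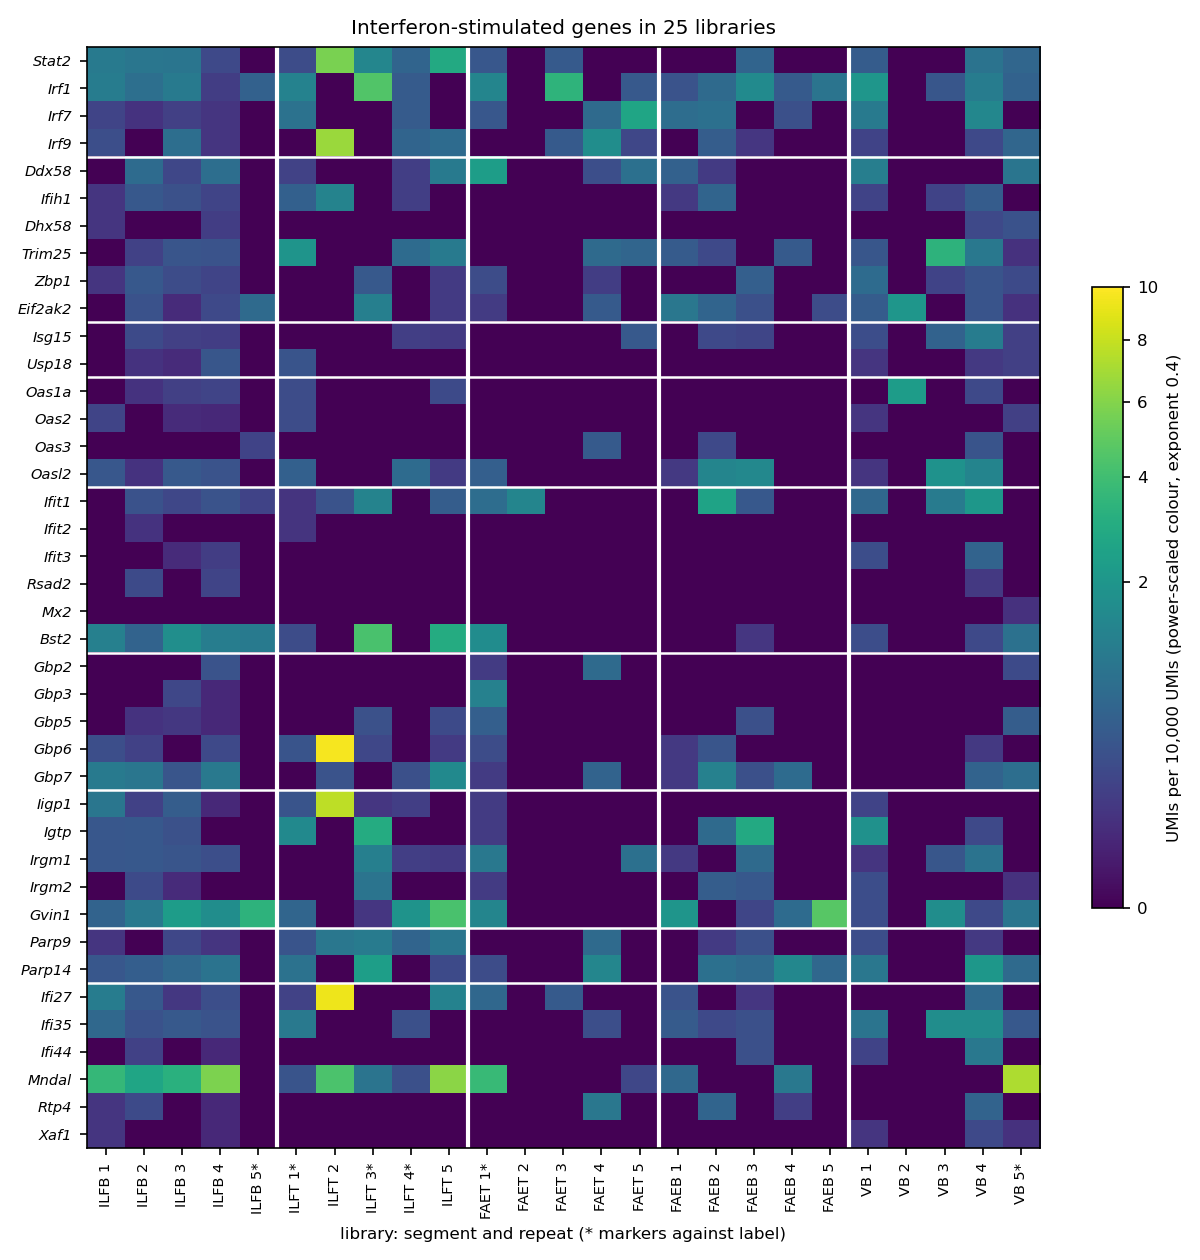
UMIs per 10,000 of the 40 members (rows, by role) in the 25 libraries (columns, by segment), with color on a power scale and * for the 6 libraries whose markers go against their label. Most cells are at 0: between 1 and 35 members were detected in a library, and Irf1 and Gvin1 were detected in the most libraries (20 and 18 of 25).

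Each gene was then compared between ILF and epithelium with edgeR's quasi-likelihood test, as the mean of ILFB and ILFT over the mean of FAET, FAEB and VB, with p-values adjusted by Benjamini-Hochberg over all genes tested. Genes needed 3 UMIs in 3 libraries, and 30 members passed. The other 10 had 1 to 18 UMIs each: Dhx58, Usp18, Oas2, Oas3, Ifit2, Rsad2, Mx2, Gbp3, Ifi44 and Xaf1. At an adjusted p under 0.05, 2 of the 30 were higher in ILF, Iigp1 and Bst2, and 0 were lower, where 2.56% of all 9956 genes tested were called higher and 0.472% lower. Of the 30, 19 had a positive and 11 a negative log2 fold change, with a median of 0.17 against 0.48 over all genes. At an unadjusted p under 0.05, 7 were higher and 1 lower, against 15.0% and 4.02% of all genes. The median of the members was above that of all genes in 6 of the 30 fits that left out 1 repeat or 1 library (without repeats 1 or 4, or without VB repeat 5, FAEB repeat 3, FAET repeat 4 or ILFB repeat 4) and ran from 0.069 to 0.96. In a cut area, fewer cells of a type and less RNA per cell cannot be told apart.

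Iigp1 (chr18:60376027-60392634, plus strand) encodes an immunity-related GTPase that loads onto the vacuoles of intracellular parasites. ILFB had 0.958, 0.161, 0.465, 0.0468 and 0 Iigp1 UMIs per 10,000 in repeats 1 to 5, and ILFT 0.347, 7.67, 0.102, 0.145 and 0. FAET had 0.128 in repeat 1, VB 0.182 in repeat 1, and the other 13 epithelial libraries 0. It was thus detected in 8 of 10 ILF libraries, at 51 UMIs in all, and in 2 of 15 epithelial ones, at 3 UMIs. The pooled ratio was 16.9 (95% exact interval 5.47 to 84.7, counting error only), and the fitted log2 fold change 4.04 (SE 1.03, adjusted p = 0.0149), a value that depends on the prior count because FAEB was at 0. Of the 54 UMIs, 23 came from ILFT repeat 2. Without that library the log2 fold change was 3.12 (adjusted p = 0.0596), and without ILFB repeat 3 it was 3.36 (adjusted p = 0.0623), neither past the threshold. With limma-voom it was 1.45 (adjusted p = 0.176).

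Bst2 (chr8:71534255-71537456, minus strand), tetherin, holds budding virus particles on the cell surface, and in mice plasmacytoid dendritic cells and plasma cells carry it even without interferon. ILFB had 1.25, 0.565, 1.71, 1.17 and 1.07 Bst2 UMIs per 10,000, and ILFT 0.261, 0, 4.30, 0 and 2.98. FAET had 1.66 in repeat 1 and 0 in the other 4, FAEB 0.0996 in repeat 3 and 0 in the other 4, and VB 0.273, 0, 0, 0.226 and 0.860. All 5 ILFB libraries exceeded the 13 epithelial libraries with epithelial markers, and the only epithelial values above 0.5 came from FAET repeat 1 and VB repeat 5, both rich in immune markers. The pooled counts were 154 UMIs in ILF and 30 in epithelium, a ratio of 5.11 (95% exact interval 3.44 to 7.83). The log2 fold change was 2.87 (SE 0.865, adjusted p = 0.0393) and 3.20 with the repeat as a block (adjusted p = 0.0531), a fit that called 0.653% of all genes higher and 0.151% lower and kept Iigp1 alone of the members. The call was a narrow one: leaving out 1 library at a time kept it in 7 of 25 cases, with log2 fold changes of 2.55 (without ILFT repeat 3, adjusted p = 0.0824) to 4.498 (without FAET repeat 1, adjusted p = 0.00253), and adjusted p was highest without ILFB repeat 1 (0.0956).

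Stat2 (chr10:128270559-128292849, plus strand), the subunit through which type I and III interferon act, had an unadjusted p under 0.05 but did not pass. It had 1.05, 0.968, 0.930, 0.234 and 0 UMIs per 10,000 in ILFB and 0.261, 5.67, 1.44, 0.581 and 2.86 in ILFT. FAET had 0.384, 0, 0.429, 0 and 0, FAEB 0.598 in repeat 3 only, and VB 0.455, 0, 0, 0.904 and 0.626. It was seen in 9 of 10 ILF libraries, at 108 UMIs, and in 6 of 15 epithelial ones, at 31 UMIs. The log2 fold change was 2.27 (SE 0.829, adjusted p = 0.0953). It passed without FAEB repeat 3 (3.40, adjusted p = 0.0302) and without FAET repeat 1 (2.66, adjusted p = 0.0490).

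Mndal (chr1:173849126-173942491, minus strand) split along the markers rather than along the labels. ILFB had 3.64, 2.66, 3.20, 5.75 and 0 UMIs per 10,000, and ILFT 0.347, 4.33, 0.922, 0.290 and 6.21. FAET had 3.71 in repeat 1, 0.205 in repeat 5 and 0 in the other 3, FAEB 0.655, 0, 0, 1.01 and 0, and VB 7.20 in repeat 5 and 0 in the other 4. The 6 ILF libraries with immune markers held 2.66 to 6.21, and the 2 epithelium-labeled libraries with immune markers 3.71 and 7.20. The 4 ILF-labeled libraries with epithelial markers held 0 to 0.922 and the 13 epithelial libraries 0 to 1.01. Over all 25 libraries the log2 fold change was 1.84 (SE 0.705, adjusted p = 0.114). It passed without VB repeat 5 (4.22, adjusted p = 0.000810) and without FAET repeat 1 (3.12, adjusted p = 0.00783), and was 1.28 without ILFT repeat 5 (adjusted p = 0.404). Its annotated span overlaps Ifi203, Ifi211 and Gm38050 on the same strand, so reads there could have been assigned differently.

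Gbp6, a guanylate-binding protein, and Ifi27, a small membrane protein, owed much of their counts to ILFT repeat 2 and were singled out after their values were seen. Gbp6 had 9.67 UMIs per 10,000 in that library (29 of 53 UMIs), 0 to 0.347 in the other 9 ILF libraries and 0 to 0.351 in epithelium. Ifi27 had 9.34 there (28 of 82 UMIs), 0 to 1.31 in the other 9 and 0 to 0.678 in epithelium. Away from ILFT repeat 2 the ranges of both genes overlapped between the tissues. The log2 fold changes were 2.48 for Gbp6 (SE 0.986, adjusted p = 0.131) and 1.80 for Ifi27 (SE 0.897, adjusted p = 0.252), and without ILFT repeat 2 they were 1.56 (adjusted p = 0.399) and 1.32 (adjusted p = 0.461). A second gene named Gbp6 has the same last 400 bases, and Gbp6 overlaps Gbp10, so its counts are uncertain.

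ILFT repeat 2 was also a small library, of 29987 UMIs. It held 139 member UMIs over 10 members: Gbp6, Ifi27, Iigp1, Irf9, Stat2, Mndal, Ifih1, Parp9, Gbp7 and Ifit1. Bst2, Gvin1, Irf1, Irf7 and Igtp were at 0 in it. At this depth 0 UMIs allow up to 1.00 per 10,000, the level of 3 UMIs.

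Gvin1, a very large interferon-inducible GTPase, was detected in 18 of 25 libraries. ILFB had 0.575, 1.05, 2.27, 1.68 and 3.38 UMIs per 10,000, and ILFT 0.608, 0, 0.102, 1.89 and 4.30. FAET had 1.41 in repeat 1 and 0 in the other 4, FAEB 1.96, 0, 0.199, 0.723 and 4.70, and VB 0.273, 0, 1.67, 0.226 and 0.938. FAEB repeat 5 held the highest level, above every ILF library. The log2 fold change was 1.07 (SE 0.759, adjusted p = 0.458). With 1 library left out it ran from 0.73 to 2.64, and it passed without FAET repeat 1 (2.64, adjusted p = 0.0480). The last 400 bases of Gvin1 are identical to those of Gm4070, so reads could not be assigned to 1 of the pair by sequence.

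Irf7, the factor that amplifies type I interferon transcription, ran the other way and was also singled out after its values were seen. ILFB had 0.192, 0.0807, 0.155, 0.0936 and 0 UMIs per 10,000, and ILFT 0.869, 0, 0, 0.436 and 0. FAET had 0.384, 0, 0, 0.706 and 2.67, FAEB 0.764, 0.818, 0, 0.289 and 0, and VB 1.09, 0, 0, 1.47 and 0. In ILFB every library was under 0.2, while 7 epithelial libraries exceeded 0.3. Pooled, Irf7 had 21 UMIs in ILF and 62 in epithelium, and the log2 fold change was -1.74 (SE 0.893, adjusted p = 0.267). The only member with an unadjusted p under 0.05 toward epithelium was Rtp4, a chaperone of receptor proteins, at 23 UMIs (log2 fold change -2.43, adjusted p = 0.147, with ILFT at 0).

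Irf1, a factor that interferon gamma induces, was among the most even members. ILFB had 1.15, 0.807, 1.08, 0.140 and 0.534 UMIs per 10,000, and ILFT 1.30, 0, 4.51, 0.436 and 0. FAET had 1.41, 0, 3.43, 0 and 0.410, FAEB 0.327, 0.702, 1.59, 0.434 and 0.913, and VB 2.00, 0, 0.371, 1.13 and 0.547. High and low libraries occurred in both tissues. The log2 fold change was 0.12 (SE 0.745, adjusted p = 1), and its sign turned under several settings. Irf9, which gives the Stat complex its DNA contact, had 20 of its 81 UMIs in ILFT repeat 2 and a log2 fold change of 0.97 (SE 0.864, adjusted p = 0.583).

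None of the tested sensors of foreign nucleic acid passed the test. Ddx58, which encodes the RNA sensor RIG-I, had 0 to 1.07 UMIs per 10,000 in ILF and 0 to 2.30 in epithelium, with its highest value in FAET repeat 1. Trim25, a ubiquitin ligase of that sensor, had 0 to 1.91 in ILF and 0 to 3.34 in epithelium. Their log2 fold changes were 0.20 (SE 0.782) and 0.03 (SE 0.840), with adjusted p of 0.970 and 1. Ifih1, a sensor of long double-stranded RNA, had 27 UMIs in 7 ILF libraries and 13 in 5 epithelial ones, with FAET at 0 in all 5 repeats (log2 fold change 1.67, adjusted p = 0.282). Zbp1, a sensor of left-handed nucleic acid, and Eif2ak2, the kinase PKR that halts translation, had log2 fold changes of -0.13 and -0.34 (adjusted p = 1 and 0.938).

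Of the effectors of virus restriction in the list, Bst2 alone passed the test. Ifit1, which binds RNA that lacks host cap marks, had 0 to 1.33 UMIs per 10,000 in ILF and 0 to 2.57 in epithelium (log2 fold change -0.69, SE 0.969, adjusted p = 0.767). Oasl2, an OAS-like protein, had 0 to 0.726 in ILF and 0 to 1.85 in epithelium (log2 fold change -0.43, SE 0.937, adjusted p = 0.886). Isg15, the ubiquitin-like tag, had 35 UMIs in all, 10 of them in VB repeat 4, and a log2 fold change of -0.88 (SE 1.02, adjusted p = 0.698). Oas1a had 13 UMIs in ILF and 10 in epithelium, 8 of those in VB repeat 2, with a log2 fold change of 1.60 (adjusted p = 0.235) that depends on the prior count because FAET and FAEB were at 0. Classic members such as Rsad2 (8 UMIs), Ifit2 (2 UMIs) and Mx2 (1 UMI) were too rare at this depth to compare. Oas1a shares 97.5% of its last 400 bases with Oas1g, and Ifit3 shares 95% with Ifit3b.

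Of the remaining GTPases, Gbp7 had 0 to 1.55 UMIs per 10,000 in ILF and 0 to 1.29 in epithelium (log2 fold change 0.78, SE 0.849, adjusted p = 0.678). Igtp, a regulator of the vacuole-loading GTPases, was patchy: ILFT repeats 1 and 3 had 1.56 and 2.97, FAEB repeat 3 had 2.89, VB repeat 1 had 1.82, and the other 21 libraries 0 to 0.702. Its log2 fold change was 0.85 (SE 0.816, adjusted p = 0.619), and its span overlaps Irgm2 on the same strand. Irgm1 and Irgm2, the regulators of that group, had log2 fold changes of 0.04 and 0.47 (adjusted p = 1 and 0.880). Of the ADP-ribosyltransferases, Parp14 had 0 to 2.36 in ILF and 0 to 2.03 in epithelium (log2 fold change -0.08, SE 0.838, adjusted p = 1), and Parp9 a log2 fold change of 0.93 (SE 0.978, adjusted p = 0.659). Ifi35 had 0 to 1.04 in ILF and 0 to 1.70 in epithelium (log2 fold change 0.15, SE 0.746, adjusted p = 0.994). For Gbp2 and Ifit3, segments at 0 on both sides of the comparison left no usable test.

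**Figure D4:**
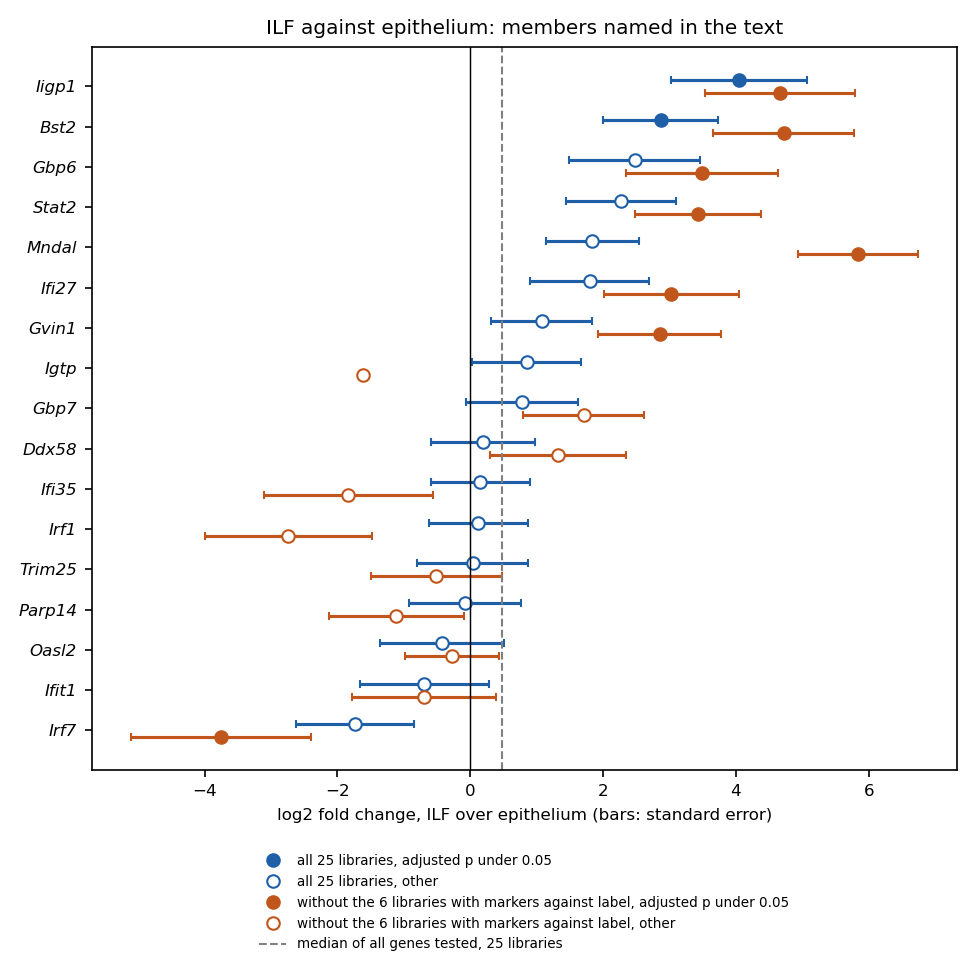
Log2 fold changes of ILF over epithelium with their standard errors for 17 members, over all 25 libraries (blue) and over 19, leaving out the 6 with markers against their label (orange), filled where the adjusted p is under 0.05; Igtp has no standard error in the smaller set. The dashed line is the median of all genes tested (0.48). Over all libraries only Iigp1 (4.04) and Bst2 (2.87) are filled, and 8 members are without the 6.

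Without the 6 libraries, the comparison of 6 ILF and 13 epithelial libraries called 8 of 28 members tested, 7 higher and 1 lower. All genes tested then gave 13.0% higher and 4.31% lower, and the median log2 fold change of the members was -0.05 against 0.52 over all genes, with 14 positive and 14 negative. The higher members were Mndal (log2 fold change 5.83, SE 0.903, adjusted p = 1.02e-07), Bst2 (4.72, adjusted p = 0.000520), Iigp1 (4.67, adjusted p = 0.00137), Stat2 (3.43, adjusted p = 0.00580), Gvin1 (2.85, adjusted p = 0.0195), Gbp6 (3.49, adjusted p = 0.0210) and Ifi27 (3.03, adjusted p = 0.0244). The lower one was Irf7 (-3.75, SE 1.36, adjusted p = 0.0377). With the repeat also as a block, Mndal, Bst2, Iigp1, Stat2, Gbp6 and Ifi27 remained past the threshold, and Gvin1 and Irf7 did not, beside 7.03% of all genes higher and 2.22% lower. These 19 libraries were kept by markers that separate immune from epithelial tissue, so they are not a random part of the 25. Irf1 turned to -2.74 (SE 1.26, adjusted p = 0.115) in them.

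**Figure D5:**
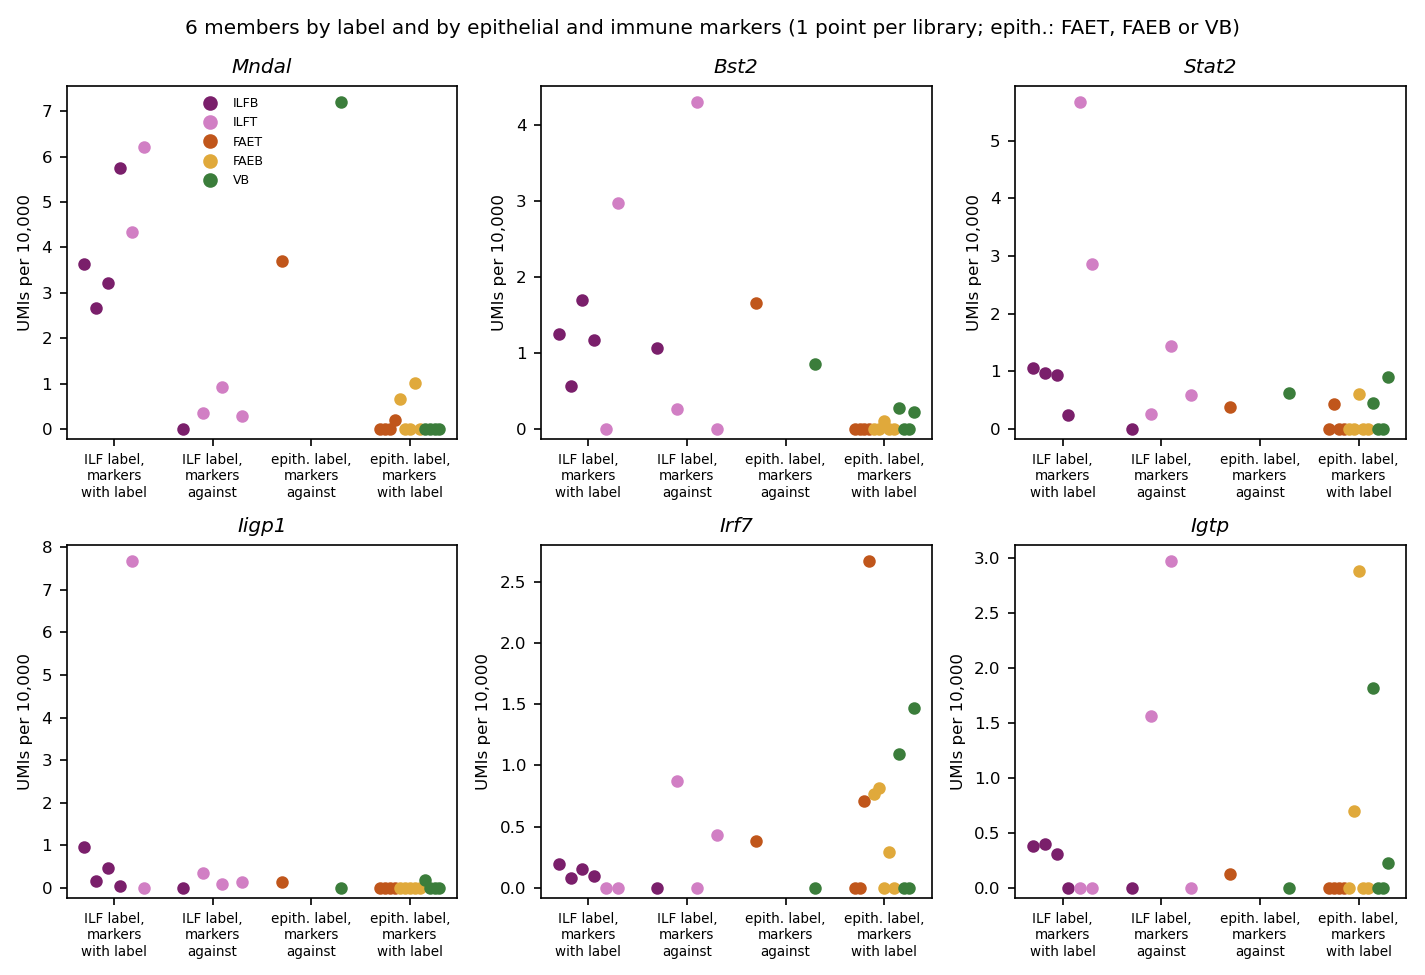
UMIs per 10,000 of Mndal, Bst2, Stat2, Iigp1, Irf7 and Igtp in 4 sets of libraries by label and by the larger marker sum: 6 ILF with immune markers, 4 ILF with epithelial markers, 2 epithelium with immune markers and 13 epithelium with epithelial markers. Mndal lay between 2.66 and 7.20 in both sets with immune markers, and at or under 1.01 in both with epithelial markers.

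Markers of immune and stromal cells were also compared, in part over 4 sets of libraries that pan-immune and pan-epithelial markers had themselves defined. Whether they varied together with the list was not tested. Of 17 pan-immune genes tested, 15 had a positive log2 fold change in ILF over epithelium and 3 were called higher, and all 7 tested macrophage genes were positive, 2 of them called. Of all genes tested, 2.56% were called higher and 0.472% lower, with a median log2 fold change of 0.48. Summed macrophage markers ran from 5.67 to 31.9 UMIs per 10,000 in the 6 ILF libraries with the larger immune sum. They ran from 0.712 to 17.2 (ILFT repeat 3) in the 4 ILF libraries with the larger epithelial sum. They were 29.2 and 18.7 in FAET repeat 1 and VB repeat 5, and 0 to 2.99 in the other 13. Of 9 macrophage markers, 9, 7, 8 and 8 were detected in these 4 sets, with Mrc1 at 0 outside the first. Plasmacytoid dendritic cell markers ran from 0 to 4.28, 0.178 to 2.66, 2.69 to 2.89 and 0 to 1.85 in the same 4 sets. Of these 5 markers, 5, 4, 4 and 3 were detected. Siglech was at 0 in both sets that go against their label, and Pacsin1 and Tlr7 were at 0 in the 13. Conventional dendritic cell markers ran from 0.667 to 6.21, 0 to 4.92, 1.64 to 2.56 and 0 to 2.04. B cell markers ran from 1.79 to 37.9, 0.410 to 5.08, 2.69 to 34.9 and 0 to 6.67. Of these 10 markers, 10, 9, 10 and 8 were detected. Ms4a1 was at 0 in the 4 ILF libraries with epithelial markers, and Ms4a1 and Bank1 in the 13. Stromal markers ran from 4.36 to 9.41, 0.174 to 3.59, 4.69 to 11.1 and 0 to 4.72 in the same 4 sets, with 5 of 6 tested positive and 0 called, and markers of T cells and innate lymphoid cells from 4.02 to 9.77, 0 to 1.31, 4.46 to 4.99 and 0 to 4.29, with 7 of 9 positive and 0 called. In the same order 7, 5, 6 and 6 of 7 stromal markers were detected, with Lum at 0 outside the first set. Of 10 T cell and innate lymphoid cell markers, 10, 7, 9 and 8 were detected, with Cd3d at 0 in both epithelial sets. The part of cell type makeup in the results was not tested.

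Between the epithelial segments and between the ILF segments, 0 members passed edgeR's test in any comparison, and 0 passed with DESeq2 (without its independent filter) or limma-voom. DESeq2 and limma-voom called 0 to 6 of all 9956 genes per comparison here. For FAET over VB, 0% of all genes were called higher and 0.0100% lower. At an unadjusted p under 0.05, 0 members were higher and 5 lower in FAET, against 2.93% and 9.54% of all genes: Oas1a (log2 fold change -4.68), Ifih1 (-4.498), Ifit3 (-4.07), Ifi35 (-3.70) and Igtp (-3.53), with adjusted p of 0.345 to 0.376. FAET was at 0 for Oas1a, Ifih1 and Ifit3, so their fitted values depend on the prior count. Ifi35, a cytoplasmic interferon-induced protein, had 0, 0, 0, 0.282 and 0 UMIs per 10,000 in FAET, against 0.910, 0, 1.67, 1.70 and 0.391 in VB. The member median was -0.92 against -0.56 over all genes, and 21 of 30 were negative. The sum over the list was 7.76 ± 6.11 in FAET and 13.1 ± 6.00 in VB (SD, n = 5 each), with overlap. With the 6 libraries left out it was 5.33 ± 3.18 in FAET and 12.4 ± 6.72 in VB (n = 4 each), and the member median -1.76 against -0.62 over all genes.

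FAET over FAEB called 0 of all genes in either direction. At an unadjusted p under 0.05, Gbp2 (log2 fold change 3.80) and Bst2 (3.25) were higher and Igtp (-4.73, adjusted p = 0.307) lower in FAET, against 4.69% and 9.61% of all genes. All 13 Bst2 UMIs of FAET came from repeat 1, one of the libraries with immune markers. Gbp2 had 6 UMIs in FAET, 5 of them in repeat 4, and was at 0 in FAEB, so its fitted value depends on the prior count. The member median was -0.16 against -0.48 over all genes, and the sum 7.76 ± 6.11 in FAET and 8.60 ± 3.30 in FAEB (SD, n = 5 each). Neither kept its sign: with a repeat or library left out the median ran from -1.19 to 0.43, and with a repeat left out the difference of the sums ran from -3.67 to 1.74. With those 6 left out, FAET held 5.33 ± 3.18 (n = 4) beside 8.60 in FAEB, and the member median was -1.09 against -1.22 over all genes.

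For FAEB over VB, 0.0100% of all genes were called in each direction. Unadjusted, 0 members were higher and 3 lower in FAEB, Oas1a (log2 fold change -4.59), Ifit3 (-4.13) and Bst2 (-3.06), with adjusted p of 0.455 to 0.531, against 3.35% and 5.60% of all genes. Both Oas1a and Ifit3 were at 0 in FAEB. The member median was -0.89 against -0.03 over all genes, with 24 of 30 negative, and the sum 8.60 ± 3.30 in FAEB and 13.1 ± 6.00 in VB (SD, n = 5 each). The median ran from -1.74 to 0.20 in the left-out fits, positive without repeat 4 alone, and without the 6 libraries it was -0.99 against 0.33 over all genes. The comparisons of FAET and FAEB with VB share the VB libraries, so their signs are not independent.

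Within the follicle, ILFB over ILFT called 0.0502% of all genes higher and 0.0402% lower. In edgeR's fit with TMM factors 0 members had an unadjusted p under 0.05, against 11.5% of all genes higher and 2.75% lower in ILFB. Parp9 was picked from the members after its values were seen, and the share of all genes with such values was not counted. ILFB had 0.0958, 0, 0.207, 0.0936 and 0 Parp9 UMIs per 10,000, and ILFT 0.348, 1.00, 1.13, 0.581 and 0.955. Its log2 fold change was -2.65 (adjusted p = 0.413), and -3.28 with the repeat as a block (unadjusted p = 0.0342, adjusted p = 0.327). It was -2.81 with limma-voom (unadjusted p = 0.00212, adjusted p = 0.135) and -3.06 with DESeq2 (unadjusted p = 0.0336, adjusted p = 0.995). Without the 6 libraries edgeR gave -2.36 (unadjusted p = 0.152, adjusted p = 0.3995). The member median was -0.02 against 0.66 over all genes, with 15 positive and 15 negative, and its sign turned in many of the left-out fits (-0.23 to 0.45). Summed over the list, ILFB had 13.2 ± 4.18 and ILFT 22.96 ± 14.98 UMIs per 10,000 (SD, n = 5), repeat 2 of ILFT standing highest. Among the other 19 libraries, ILFB had 15.01 ± 1.39 (n = 4) and ILFT repeats 2 and 5 had 46.4 and 24.9, and the member median was 0.59 against 1.88 over all genes. Over all 10 ILF libraries the sums of the zones overlapped, and ILFT repeats 1, 3 and 4 and ILFB repeat 5 had markers that go against their label. Without these, ILFB ran from 13.3 to 16.5, under ILFT repeats 2 and 5.

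Upstream of the list, the interferons themselves were all but unseen: 2 of 8 ligand genes were in the table, with 1 UMI in all, in ILFB repeat 4. Of 25 receptor and signaling genes, 19 were tested in ILF over epithelium, and 0 passed, beside the 2.56% of all genes higher and 0.472% lower. Tmem173, the DNA-sensing adaptor STING (log2 fold change 2.65, adjusted p = 0.0766), and Irf5 (1.96, adjusted p = 0.229) had an unadjusted p under 0.05. The median of these genes was 0.91. Ifnar1 and Ifnar2, the type I receptor, had log2 fold changes of 0.77 (adjusted p = 0.694) and 1.60 (adjusted p = 0.339). Ifngr1 and Ifngr2, the receptor for interferon gamma, had 0.90 (adjusted p = 0.580) and -0.26 (adjusted p = 0.946). Il10rb, a chain of the type III receptor, had 0.97 (adjusted p = 0.607), and its partner Ifnlr1 was too rare to test. Without the 6 libraries, 2 of the receptor and signaling genes were higher, Tmem173 (5.03) and the kinase Jak1 (2.70), beside 13.0% of all genes.

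Among 46 further interferon-induced genes, 30 were tested and 2 passed (2.56% of all genes were higher), both higher in ILF: Oas1b (log2 fold change 4.10, SE 1.02, adjusted p = 0.0132), an OAS family member, and Ifitm3 (2.56, SE 0.734, adjusted p = 0.0297), which blocks virus entry at endosomes. For Oas1b the fitted value depends on the prior count because FAET, FAEB and VB were at 0. The median of the genes tested from this list was 0.65, beside 0.48 for all genes. Without the 6 libraries, 6 were higher and 1, Ifi27l2b (log2 fold change -4.38), was lower, beside 13.0% and 4.31% of all genes. In the other comparisons 0 genes of either list passed.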

How the data were processed

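The deposited table holds raw UMI counts per gene, not normalized, which the authors made with zUMIs and STAR on GRCm38 with the Ensembl annotation named in the study's methods (for zUMIs and STAR, version numbers not given in the sources used here). The submitters' processing notes name bcl2fastq 2.15.0.4. Library preparation was mcSCRB-seq by the paper, while a protocol label also names a SMART-seq kit. Of the table's columns, 0 lacked a sample. Segments, repeats and mice came from the labels, and repeats of a segment all differed beyond sampling noise (chi-square over its degrees of freedom was 5.87 or more).

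The 9956 of 24089 genes that reached 3 UMIs in 3 libraries entered 1 fit of edgeR 4.0.16 (R 4.3.3; glmQLFit, glmQLFTest). It used TMM scaling, all 25 libraries, and a segment and a mouse term. Benjamini-Hochberg adjustment was done within each comparison. The standard error was the log2 fold change over the square root of F. The common dispersion was 1.78. Alternatives used RLE factors, library totals, other filters, DESeq2 1.42.0, limma-voom (limma 3.58.1), no mouse term, the repeat as a block, and libraries or repeats left out. The fit was tested on simulated data. The segments of 1 repeat were cut from the same sections of 1 mouse, so the repeat pairs libraries by design. Deviations from the segment means correlated at 0.022 on average within a repeat (50 pairs) and -0.0058 between repeats (200 pairs). These pairs include the 6 libraries with markers against their label, so the values cannot show that the pairing is negligible. Levels are UMIs per 10,000 UMIs of a library. Sums and levels used Python 3.11.15 with pandas 2.3.3 and numpy 2.4.6, and figures matplotlib 3.10.9. Intervals and limits for 0 counts (3 UMIs) cover counting error only.

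The members, the other gene lists, the markers and the tests were chosen with earlier results of these data known. Members given library by library were those with an adjusted p under 0.05 in any comparison, then those with the most UMIs until 14 were named. Gbp6, Ifi27, Irf7 and other members outside that rule were named after their values were seen. Of each other list, up to 4 genes that passed and the interferon receptors were named, with genes at an unadjusted p under 0.05 added after their values were seen. Gene positions are from GENCODE M21 (GRCm38) and promoters from RefSeq. The authors' fractions were not used. The results of 2 genes of the other lists are not reported here.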

Additional observations from a re-analysis of the deposited data

Results flagged for a closer look

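Dixon's criterion was applied to 90 groups of 5 libraries (17 members in 5 segments, and the summed share). In 28 groups 1 library stood far from the other 4. The criterion's rate of about 1 in 20 is for normally distributed values, so it gives no yardstick for counts this sparse. Of the 17 members, Gbp6, Ifi27 and Irf7 were named after their values were seen. All values are UMIs per 10,000, and groups in which the other 4 libraries were at 0 pass the criterion with a single UMI.

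ILFT repeat 2 stood apart for 3 members: Iigp1 at 7.67 (23 UMIs, next library 0.348), Gbp6 at 9.67 (29 UMIs, next 0.348) and Ifi27 at 9.34 (28 UMIs, next 1.31). These 3 genes lie on different chromosomes in the annotation used. Other ILFT libraries stood apart for Irf1 (4.51 in repeat 3, 44 UMIs), Gbp7 (1.55 in repeat 5, 13 UMIs), Ddx58 (1.07 in repeat 5, 9 UMIs) and Ifi35 (1.04 in repeat 1, 12 UMIs).

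FAET repeat 1, whose markers go against its label, stood apart for 7 members: Mndal at 3.71 (29 UMIs, next library 0.205), Bst2 at 1.66 (13 UMIs), Gvin1 at 1.41 (11 UMIs), Oasl2 at 0.511 (4 UMIs), Gbp6 at 0.256 (2 UMIs), and Iigp1 and Igtp at 0.128 each (1 UMI), with the other 4 at 0 for all but Mndal. VB repeat 5, the other epithelial library of that kind, stood apart for Mndal at 7.20 (92 UMIs, the other 4 at 0).

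Elsewhere in FAET, Parp14 (1.41, 10 UMIs), Gbp7 (0.565, 4 UMIs) and Ifi35 (0.283, 2 UMIs) stood apart in repeat 4, and Irf7 in repeat 5 (2.67, 13 UMIs, next library 0.706). In FAEB, repeat 3 stood apart for Igtp (2.89, 29 UMIs), Stat2 (0.598, 6 UMIs) and Bst2 (0.0996, 1 UMI), repeat 2 for Ifit1 (2.57, 22 UMIs) and repeat 1 for Ddx58 (0.546, 5 UMIs). In VB, repeat 1 stood apart for Igtp (1.82, 20 UMIs) and Iigp1 (0.182, 2 UMIs), and repeat 4 for Ifi27 (0.678, 6 UMIs) and Gbp6 (0.113, 1 UMI).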

How the results depend on the processing

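The count of members called in ILF over epithelium (2) depended on the processing, and so did the count of all genes called. It was 1 with no low-count filter (142 of 23199 genes called) and 0 with a filter of 5 UMIs in 5 libraries (47 of 5070). It was 1 with the replicate block (80 of 9956). With limma-voom, which called 33 of 9956 genes, it was 0 (4 at an unadjusted p under 0.05, smallest adjusted p 0.0524 for Bst2). DESeq2 without its independent filter, an alternative chosen after seeing the data, called 0 of 9956 genes. The count of members was thus 0 (5 at an unadjusted p under 0.05, smallest adjusted p 0.316 for Iigp1). DESeq2 with that filter gave an adjusted p for 1 of 30 members, so no count is given. The count was 8 without the 6 libraries whose markers go against their label (1516 of 8738 genes called) and 6 with the replicate block as well (808 of 8738). It ran from 0 to 5 when 1 repeat or 1 library was left out. It was 0 without repeat 2 (37 of 9430 genes called), repeat 3 (27 of 8950) or repeat 4 (0 of 8686) and without ILFB repeat 3 (170 of 9428). It was 5 without FAET repeat 1 (633 of 9763). RLE factors, library totals and no mouse term left it at 2, beside 430, 374 and 389 of 9956 genes. In the other 4 comparisons it was 0 under every setting run, the replicate block included, and no fit called more than 12 of all genes. Leaving out single libraries was also chosen after seeing the data.

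Log2 fold changes of members that did not pass changed sign. Irf1 (0.12) was -0.22 with limma-voom, -0.14 with the block, -2.74 without the 6 libraries, -2.54 with the block and without the 6, and -0.51 to 0.49 with a library or repeat left out. Parp14 (-0.08) was 0.062 with RLE factors, 0.086 with library totals, 0.068 with DESeq2, 0.10 with the block, and -0.65 to 1.05 in the left-out fits. Trim25 (0.03) was -0.0054 under the stricter filter, -0.30 with limma-voom, -0.044 with no mouse term, -0.51 without the 6, -0.33 with the block as well, and -0.63 to 0.42. Igtp (0.85) was -1.62 without the 6 and -1.07 with the block as well. Ifi35 (0.15) was -0.30 with limma-voom, -1.84 without the 6, -0.88 with the block as well, and -0.57 to 1.13. Ddx58 (0.20) was -0.11 with limma-voom, -0.21 with no mouse term, and -0.62 to 1.39. Oasl2 (-0.43) was 0.57 with the block and without the 6, and -0.77 to 0.64. Ifit1 (-0.69) ran from -1.25 to 0.042. The cause of these changes was not tested. With 12 of 40 members under 20 UMIs, most members can be compared only for large differences.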
